A study of Mus musculus with 8 samples.

Results

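Pattern recognition receptors and their adaptors were followed in brown adipose tissue (BAT) of mice that lack ATGL in thermogenic adipocytes. The set was chosen by name and holds 10 genes: the Toll-like receptors Tlr2, Tlr4, Tlr7 and Tlr13, the Tlr4 co-receptor Ly96, the C-type lectins Clec7a and Clec4n, the adaptors Myd88 and Pycard, and the protease Casp1. Of these, 9 were among the 31053 genes of the count table, and Clec7a was not analysed here. Bulk RNA-seq counts were available for 4 WT and 4 ATGLKO mice, all C57BL6/J, labelled as 10 weeks old and as biological replicates, and males by the study's methods. ATGLKO mice (Ucp1Δ/Δ) carry a floxed Pnpla2, the gene of adipose triglyceride lipase, and a Cre driven by the Ucp1 promoter, so the deletion is directed to thermogenic adipocytes and not to immune cells. The labels name both BAT and its stromal vascular fraction. The adipocyte genes Ucp1 (2719 ± 1281 CPM, counts scaled to library size, in WT, 2152 ± 598 in ATGLKO; SD, n = 4) and Cidea (5948 ± 1634 and 2671 ± 623) were abundant in both genotypes, so the libraries held adipocyte RNA.

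Pattern recognition receptors detect molecules of microbes or of damaged cells. Tlr2 and Tlr4 act at the cell surface, on lipoproteins and on lipopolysaccharide, the latter with Ly96 (MD-2) bound to the receptor. Tlr7 and Tlr13 act in endosomes on single-stranded RNA and on bacterial ribosomal RNA, and all of these receptors signal through Myd88 to NF-kB. Clec4n (Dectin-2) and Clec7a (Dectin-1) bind fungal cell wall sugars. Pycard (ASC) joins inflammasome sensors to Casp1, which cleaves pro-interleukin-1β and gasdermin D. Tissue macrophages are a main site of expression of most of these genes, and Myd88 is expressed widely.

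Library totals were 2017697 to 3115956 counts in WT and 2240612 to 2941799 in ATGLKO mice, and a floor of 3 counts corresponded to 0.933 to 1.53 CPM (with library sizes scaled by TMM). Pnpla2 was 2913 ± 191 CPM in WT and 474 ± 59.2 CPM in ATGLKO mice (SD, n = 4), or 16.3% of the WT mean, with no overlap between genotypes. Skeletal muscle markers varied widely within both genotypes, from a summed 19.7 to 1355 CPM in WT and from 56 to 1767 CPM in ATGLKO mice, with WT replicates 1 and 4 and ATGLKO replicates 2 and 4 the highest. Most of the set lay near the floor in WT mice, which sets how precisely any fold change can be stated.

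Promoter sequence from RefSeq (GRCm38.p6) was at hand for Tlr2, Tlr13, Clec7a, Myd88, Pycard and Casp1, and none was used for Tlr4, Tlr7, Clec4n and Ly96. Exact matches were sought on both strands of the 250 bases before each start, for the PU.1 core GAGGAA of the myeloid factor PU.1, for the NF-kB consensus, for the ISRE core of interferon-responsive genes, for AP-1 (TGANTCA) and for TATAAA. The PU.1 core occurred in the windows of Tlr13, Clec7a, Pycard and Casp1, 4 of the 6, and in 23.3% of all 32851 windows. The NF-kB letters occurred before Tlr2 alone of the 6, and in 17.6% of all windows. The ISRE core occurred in the window of Myd88 alone of the 6, and in 2.98% of all windows, while AP-1 matched none of the 6. The RefSeq start used for Myd88 differs from that of GENCODE, and its window lies inside the GENCODE gene given for Myd88, downstream of the 5′ end. The RefSeq starts used for Tlr2 and Tlr13 also lie inside their GENCODE genes, and the stretches shown for these end just before the GENCODE gene. The Myd88 window also held TATAAA on both strands, in overlapping positions. The stretches below show matches in capitals, 5′ to 3′ along each gene, for the measured members with a window (Pycard, Casp1, Tlr13, Tlr2 and Myd88). Clec7a, whose window also held the PU.1 core, was not measured, and Tlr7 had no window. A link between these letters and the members' changes was not tested.
Pycard, chr7:127993868-127993987, minus strand, PU.1 core on the opposite strand: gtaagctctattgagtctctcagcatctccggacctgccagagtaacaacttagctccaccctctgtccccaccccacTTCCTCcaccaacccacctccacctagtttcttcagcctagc
Casp1, chr9:5298397-5298516, plus strand, PU.1 core on the opposite strand: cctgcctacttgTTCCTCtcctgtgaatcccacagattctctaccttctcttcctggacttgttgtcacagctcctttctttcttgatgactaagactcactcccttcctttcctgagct
Tlr13, chrX:106143144-106143203, plus strand, PU.1 core on the gene's strand: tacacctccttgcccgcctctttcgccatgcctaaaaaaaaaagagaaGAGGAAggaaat
Tlr2, chr3:83841768-83841827, minus strand, NF-kB letters that read the same on both strands: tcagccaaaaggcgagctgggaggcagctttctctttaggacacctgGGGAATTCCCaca
Myd88, chr9:119340039-119340068, minus strand, ISRE core on the gene's strand: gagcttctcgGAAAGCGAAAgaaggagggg
A match of letters is a description of the sequence and was not tested as a binding site.

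Across the set, 4 members rose in ATGLKO BAT, the endosomal receptors Tlr7 and Tlr13 and the inflammasome pair Pycard and Casp1. The surface receptors Tlr2 and Tlr4, Ly96 and Clec4n had higher means in ATGLKO mice without passing the test, and Myd88 had nearly equal means in both genotypes. Only Myd88 passed the default filter on low counts of edgeR (filterByExpr), and none of the set was called in that fit, in which 21.0% of 8930 genes were. The other members were therefore read from edgeR's quasi-likelihood fit to all genes with at least 1 count in any mouse, which called Tlr7, Tlr13, Pycard and Casp1, 4 of 9, against 9.81% of 16617 genes called higher. In this fit the prior weight on the common spread was very large (prior degrees of freedom 328, against 9.33 with filterByExpr), and 24.9% of its calls had overlapping genotypes. A stricter filter of at least 10 counts over all mice (prior degrees of freedom 12.6), chosen after the data had been seen, also called these 4 and no other member, against 11.7% of 12736 genes called higher. As each of the 4 reaches 10 counts only through its ATGLKO counts, this repeat shows how the adjusted p moves with the weight on the common spread and is no further support for the calls. DESeq2's Wald test called the same 4, against 10.1% of 12619 genes called higher. It sets aside genes of low mean count before its adjustment, so the same limit applies and it too is no further support. Limma voom on genes with at least 1 count added Tlr2 and Ly96, against 9.84% of genes called higher, and limma trend on the deposited log2 values added Tlr2, against 8.74%. CPM did not overlap between genotypes, with ATGLKO higher, in 7 of the 9 members and in 10.9% of genes with a count. The median log2 fold change was 2.39 over the 9 members and 0.083 over all 16617 genes, and the median ratio of pooled counts was 6.38. In bulk tissue, more cells of a type and more RNA per cell cannot be told apart.

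**Figure D1:**
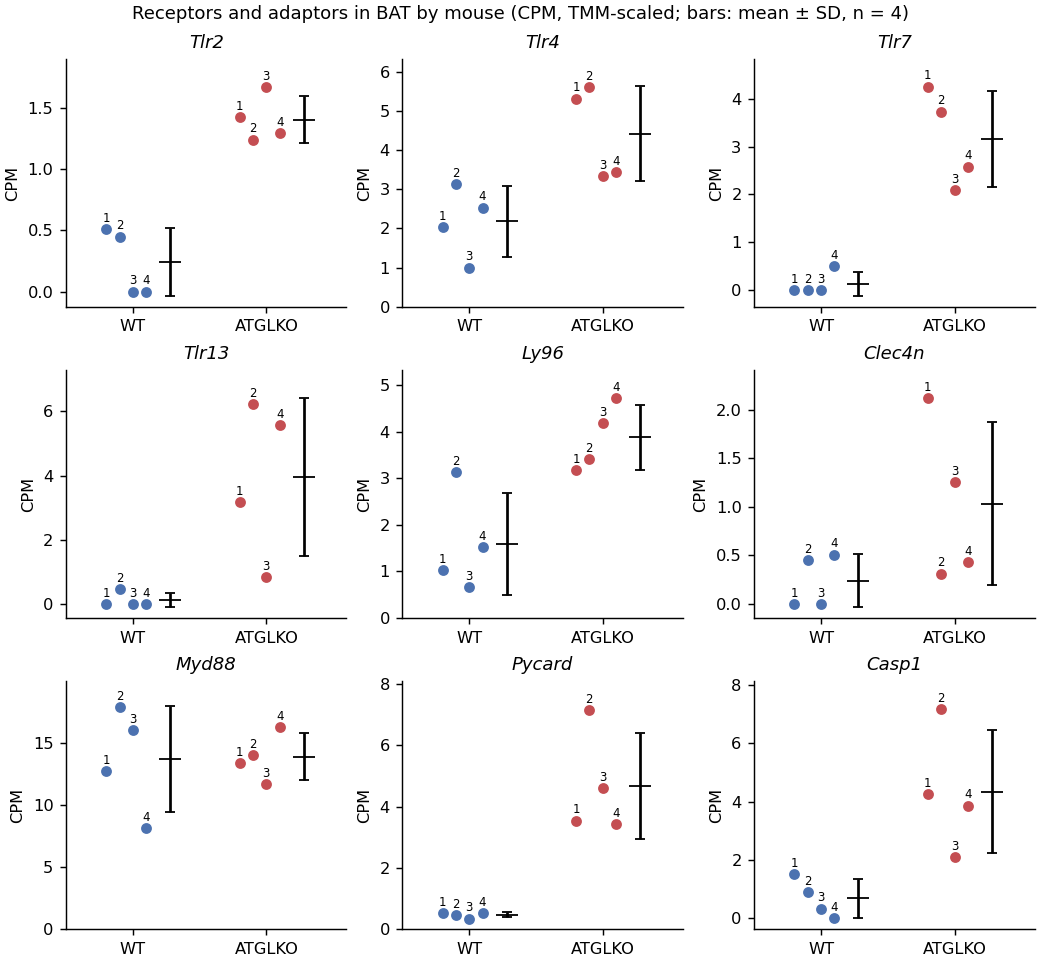
CPM of the 9 measured members in each mouse (numbered by replicate; blue WT, red ATGLKO), with the mean and SD of 4 mice beside each group and a separate vertical scale per gene. The genotypes do not overlap in 7 panels, and they overlap in those of Clec4n and Myd88.

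The endosomal receptor Tlr7 (ENSMUSG00000044583, chrX:167304929-167330558, minus strand) was nearly undetected in WT BAT. It had 0, 0, 0 and 1 counts in WT replicates 1 to 4 and 12, 12, 5 and 6 in ATGLKO replicates 1 to 4. Every ATGLKO mouse was above every WT mouse, with ATGLKO replicates 1 and 2 higher than 3 and 4. Mean CPM was 0.127 ± 0.253 in WT and 3.16 ± 0.999 in ATGLKO mice (SD, n = 4), and the ratio of pooled counts was 29.8 with a 95% counting interval of 5.01 to 1210. The log2 fold change was 4.32 ± 0.94 (SE, edgeR, adjusted p = 0.000118, and 0.00145 with the stricter filter). Over left-out mice the fitted value ran from 3.91 to 6.05, the latter without WT replicate 4, which held the 1 WT count. With 1 WT count or none, the fitted fold depends on the prior count that the model adds and is no bound, and the counting interval is the better guide to its size.

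Tlr13 (ENSMUSG00000033777, chrX:106143204-106160493, plus strand), the endosomal sensor of bacterial ribosomal RNA, had 0, 1, 0 and 0 counts in WT and 9, 20, 2 and 13 in ATGLKO mice. The genotypes did not overlap, but ATGLKO replicate 3, with 2 counts, was under the floor of 3. Mean CPM was 0.112 ± 0.224 in WT and 3.96 ± 2.46 in ATGLKO mice (SD, n = 4), and the pooled ratio was 37.5 with a counting interval of 6.38 to 1513. The log2 fold change was 4.64 ± 0.89 (SE, edgeR, adjusted p = 8.85e-06, and 0.00162 with the stricter filter). Over left-out mice it ran from 4.23 to 6.35, the latter without WT replicate 2, which held the 1 WT count, so that this value too depends on the prior count. Among ATGLKO mice it had the widest relative spread of the 4 members that rose, and when the 4 libraries highest in muscle markers were left out it was no longer called (log2 fold change 3.10, edgeR adjusted p = 0.195, 2 mice against 2).

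The surface receptor Tlr2 (ENSMUSG00000027995, chr3:83836272-83841767, minus strand) had 1, 1, 0 and 0 counts in WT and 4, 4, 4 and 3 in ATGLKO mice. The 4 ATGLKO mice were close to each other, at 1.24 to 1.67 CPM, and all were above the WT mice, at 0 to 0.51 CPM. The pooled ratio was 6.38 with a counting interval of 1.48 to 57.5. The edgeR log2 fold change of 2.39 ± 1.03 (SE) did not pass (adjusted p = 0.104, and 0.0717 with the stricter filter). It passed with limma voom (1.97, adjusted p = 0.0241) and limma trend (1.56, adjusted p = 0.0252), so the call for Tlr2 turned on the test.

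Tlr4 (ENSMUSG00000039005, chr4:66827584-66930284, plus strand), the lipopolysaccharide receptor, had 4, 7, 3 and 5 counts in WT and 15, 18, 8 and 8 in ATGLKO mice. The highest WT mouse, at 3.14 CPM, was just below the lowest ATGLKO mouse, at 3.34 CPM. Means were 2.18 ± 0.903 and 4.42 ± 1.20 CPM (SD, n = 4), and the pooled ratio was 2.20 with a counting interval of 1.27 to 3.95. The log2 fold change of 1.04 ± 0.49 (SE) did not pass in edgeR (adjusted p = 0.157).

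Ly96 (ENSMUSG00000025779, chr1:16688051-16709611, plus strand), which completes the Tlr4 receptor, had 2, 7, 2 and 3 counts in WT and 9, 11, 10 and 11 in ATGLKO mice. WT replicate 2 stood highest of the WT mice for both Ly96 and Tlr4. At 3.14 CPM it was next to the lowest ATGLKO mouse for Ly96, at 3.18 CPM. The pooled ratio was 2.49 with a counting interval of 1.33 to 4.95, and the log2 fold change was 1.26 ± 0.55 (SE, edgeR adjusted p = 0.115). Without WT replicate 2 the change was 1.84 and was called (edgeR adjusted p = 0.0329), and it was also called by limma voom (1.53, adjusted p = 0.0365).

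The fungal sugar receptor Clec4n (ENSMUSG00000023349, chr6:123229843-123247021, plus strand) had 0, 1, 0 and 1 counts in WT and 6, 1, 3 and 1 in ATGLKO mice. ATGLKO replicates 2 and 4 were at the level of the WT mice, so the genotypes overlapped. The pooled ratio was 4.68 with a counting interval of 1.02 to 43.5, and the log2 fold change was 1.97 ± 1.10 (SE, edgeR adjusted p = 0.247). The counting interval lies just above 1, but it leaves out the spread between mice. Without ATGLKO replicate 1 the fitted change was 1.32.

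Myd88 (ENSMUSG00000032508, chr9:119335934-119341411, minus strand), through which all 4 Toll-like receptors of the set signal, was the one member well above the floor in every mouse. It had 25, 40, 48 and 16 counts in WT and 38, 45, 28 and 38 in ATGLKO mice. WT replicate 4 was the lowest and WT replicate 2 the highest of all 8 mice, and the ATGLKO mice lay between them. Means were 13.7 ± 4.30 and 13.9 ± 1.90 CPM (SD, n = 4), and the log2 fold change was 0.00 ± 0.283 (SE, edgeR with filterByExpr, adjusted p = 0.999), with a sign that changed between scalings (−0.02 with DESeq2's size factors, 0.14 with total counts). The pooled ratio was 0.983 with a counting interval of 0.772 to 1.25. Exons of Myd88 overlap those of Acaa1a on the other strand, and use of strand in the counting is not given in the sources used here, so reads of the pair cannot be told apart.

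Pycard (ENSMUSG00000030793, chr7:127989708-127993867, minus strand), the inflammasome adaptor, had 1 count in each WT mouse and 10, 23, 11 and 8 in ATGLKO mice. Each ATGLKO mouse was at 3.43 CPM or more, and no WT mouse was above 0.51 CPM. Means were 0.450 ± 0.0822 and 4.68 ± 1.73 CPM (SD, n = 4), and the pooled ratio was 11.1 with a counting interval of 4.07 to 42.1. The log2 fold change was 3.27 ± 0.67 (SE, edgeR, adjusted p = 4.12e-05, and 0.000528 with the stricter filter). Exons of Pycard overlap Gm45205 on the other strand, and the same limit on strand applies as for Myd88.

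Casp1 (ENSMUSG00000025888, chr9:5298517-5307265, plus strand), the inflammasome protease, had 3, 2, 1 and 0 counts in WT and 12, 23, 5 and 9 in ATGLKO mice. The lowest ATGLKO mouse, replicate 3 at 2.09 CPM, was above the highest WT mouse, replicate 1 at 1.53 CPM. Means were 0.690 ± 0.671 and 4.34 ± 2.10 CPM (SD, n = 4), and the pooled ratio was 6.95 with a counting interval of 2.98 to 19.9. The log2 fold change was 2.62 ± 0.64 (SE, edgeR, adjusted p = 0.000754, and 0.00756 with the stricter filter). Over left-out mice it ran from 2.26 to 3.23, the latter without WT replicate 1, which held 3 of the 6 WT counts. Without the 4 libraries highest in muscle markers it was 2.35 and was not called (edgeR adjusted p = 0.122, 2 mice against 2). Pycard passed in that fit (3.22, edgeR adjusted p = 0.0148). Tlr7 had 0 counts in both WT mice left in it and passes its filter only through ATGLKO counts, so neither fold nor call is given for it.

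A two-sided exact permutation test over the 8 mice gave p = 0.0286 for each of Tlr2, Tlr4, Tlr7, Tlr13, Ly96, Pycard and Casp1, the smallest p that 4 mice against 4 allow. The same exact permutation test gave p = 0.171 for Clec4n and p = 0.971 for Myd88. These 9 p-values are not adjusted. Within the ATGLKO mice, replicate 3 was the lowest for 5 of the 9 members (Tlr4, Tlr7, Tlr13, Myd88 and Casp1) and replicate 2 the highest for 4 (Tlr4, Tlr13, Pycard and Casp1). Replicate 2 also had the highest summed macrophage markers, at 577 CPM against 390 to 437 CPM in the other ATGLKO mice, and the highest muscle markers, and the part of either in these values was not tested.

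**Figure D2:**
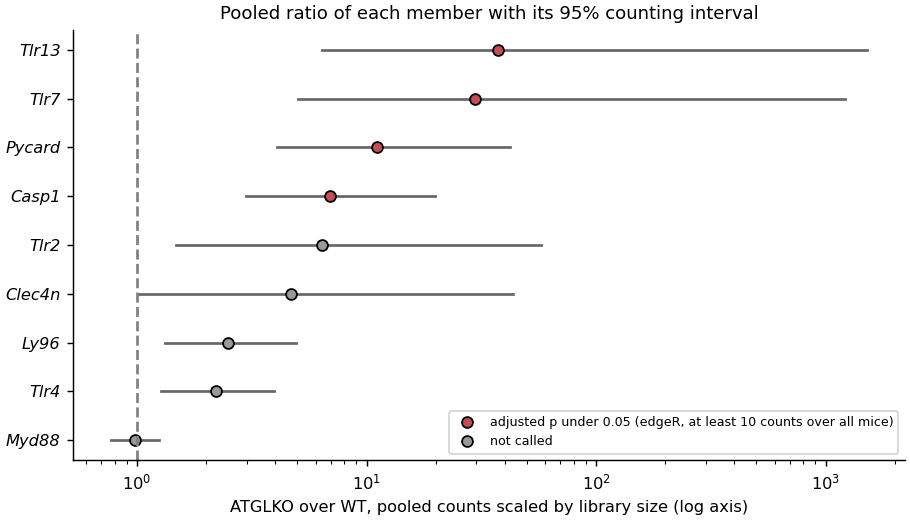
Ratio of pooled counts, ATGLKO over WT and scaled by library size, for each measured member on a log axis, with 95% counting intervals that do not include the spread between mice. Red marks the 4 members called by edgeR, whose ratios run from 6.95 for Casp1 to 37.5 for Tlr13, and the interval of Myd88 spans 1.

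Macrophage markers were higher in the same mice. Of the 9 that passed filterByExpr, 7 were called higher, and the summed level of the 10 markers was 87.8 to 124 CPM in WT and 390 to 577 CPM in ATGLKO mice. Some of the 9, such as Cd68 (4 to 10 counts in WT and 120 to 348 in ATGLKO mice) and Adgre1 (0 to 11 and 27 to 59), pass that filter only through their ATGLKO counts. Their calls and adjusted p are therefore descriptions. Csf1r, the receptor of the macrophage growth factor CSF1, went from 23.3 ± 3.38 to 166 ± 29.0 CPM (SD, n = 4, edgeR adjusted p = 2.53e-07), Cd68 from 2.81 ± 1.26 to 69.5 ± 26.5 CPM (edgeR adjusted p = 5.16e-07) and Adgre1, which encodes F4/80, from 2.11 ± 2.06 to 15.3 ± 2.97 CPM (edgeR adjusted p = 0.000364). Neutrophil markers summed to 1.01 to 8.51 CPM in WT and 1.72 to 6.53 CPM in ATGLKO mice, with overlap and with Ly6g and Camp at 0 in all mice. None of them passed filterByExpr, and none of 5 was called by edgeR with at least 1 count in any mouse. B and T cell markers summed to 2.34 to 5.57 CPM and 5.58 to 12 CPM, just without overlap, with Cd79a at 0. They too did not pass filterByExpr, and none of 9 was called with at least 1 count in any mouse. Monocyte markers summed to 3.06 to 15.2 CPM in WT and 23.8 to 40.5 CPM in ATGLKO mice, without overlap. Of these, the chemokine receptor Ccr2 had 1, 10, 7 and 13 counts in WT and 39, 82, 42 and 72 in ATGLKO mice. Dendritic cell markers summed to 17.2 to 29.6 CPM and 27.2 to 42.3 CPM, with overlap. Of these, the integrin Itgax, which macrophages also express, had 1, 0, 0 and 1 counts in WT and 31, 72, 26 and 49 in ATGLKO mice (pooled ratio 75.8, counting interval 20.7 to 630). Ccr2 and Itgax pass filterByExpr only through their ATGLKO counts, so no call is given for them. Endothelial cell markers summed to 152 to 180 CPM in WT and 194 to 213 CPM in ATGLKO mice, without overlap, with none of 6 called. All 6 fibroblast markers were called higher as well, and of 10 brown adipocyte markers 4 were called lower and 1 higher. Over all 8930 genes tested with filterByExpr, 1191 (13.3%) were called higher and 681 lower. The part of these cell types in the members' values was not tested.

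To set the members beside these markers, each was expressed per 100 counts of the 10 macrophage markers in the same mouse, as a description with no test. Tlr7 was 0 to 0.41 per 100 marker counts in WT and 0.525 to 0.972 in ATGLKO mice, without overlap, and the pooled ratio was 6.91 with a counting interval of 1.16 to 281. Pycard was 0.337 to 0.51 and 0.81 to 1.24 per 100, also without overlap, with a ratio of 2.57 and an interval of 0.944 to 9.77 that includes 1. Tlr13 gave a ratio of 8.69 (1.48 to 351) with overlapping mice. Casp1 (1.61, interval 0.690 to 4.61), Tlr2 (1.48, 0.344 to 13.3) and Clec4n (1.09, 0.237 to 10.1) had intervals on both sides of 1.

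The other members ran lower per marker count. Myd88 was 6.56 to 20.4 per 100 marker counts in WT and 2.43 to 4.19 in ATGLKO mice, without overlap, and its ratio was 0.228 (0.179 to 0.291). With nearly equal Myd88 CPM in both genotypes, this ratio follows from the rise of the markers in the denominator. It gives no level of Myd88 in macrophages. Tlr4 gave 0.509 (0.294 to 0.916) with overlapping mice, and Ly96 gave 0.578 (0.309 to 1.15). With Csf1r alone in place of the 10 markers, the ratios were smaller for all 9 members. They fell to 4.12 for Tlr7, 5.17 for Tlr13 and 1.53 for Pycard, each with an interval that includes 1, to 0.960 for Casp1, and to 0.136 for Myd88. The change of denominator scales all 9 ratios by the same factor, so their order is fixed, and it took the ratios of Tlr2, Clec4n and Casp1 from above to below 1.

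**Figure D3:**
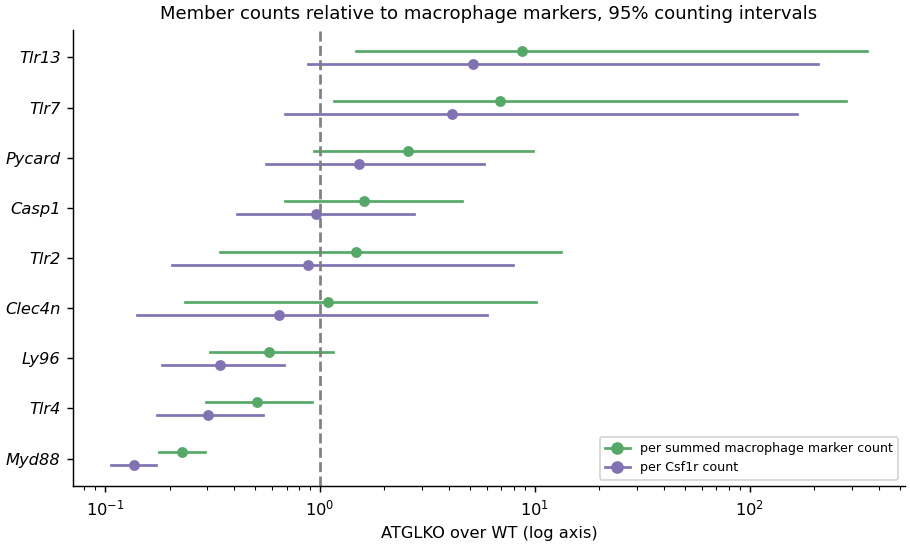
Ratio, ATGLKO over WT, of each member's counts per summed macrophage marker count (green) and per Csf1r count (purple) on a log axis with 95% counting intervals. Tlr13 and Tlr7 lie furthest above 1, at 8.69 and 6.91 per summed markers, and Myd88 furthest below, at 0.228. The value of Myd88 follows from the rise of the markers, as its own CPM was nearly equal in both genotypes.

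The genes that work with these receptors were read from 8 lists that together hold 113 symbols. Of the 56 that passed filterByExpr, 23 were called higher and none lower by edgeR, against 13.3% of all genes tested called higher. Some of these, such as Syk (3 to 6 counts in WT and 20 to 32 in ATGLKO mice) and Cd180 (1 to 6 and 11 to 42), pass that filter only through their ATGLKO counts. The numbers of genes called, and the adjusted p of genes with few WT counts, here and by list below, are therefore descriptions. They are no support for a rise of the lists or of these genes. The median log2 fold change of the 56 was 0.62, beside −0.009 over all genes tested.

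In the list of other Toll-like receptors and co-receptors, Tlr3 was the only Toll-like receptor tested, and it was not called (edgeR log2 fold change 0.99, adjusted p = 0.0631). Of the 6 tested genes of that list, 3 rose, none of them a Toll-like receptor. They were Unc93b1, which carries endosomal receptors such as Tlr7 and Tlr13 out of the endoplasmic reticulum (6.85 ± 1.34 to 17.8 ± 3.67 CPM, SD, n = 4; edgeR log2 fold change 1.37, adjusted p = 0.000944), Cd180 (2.85, adjusted p = 0.000952) and the lipopolysaccharide binding protein Lbp (2.69, adjusted p = 0.00432). Among the sparser Toll-like receptors, Tlr6 had 0, 0, 0 and 1 counts in WT and 5, 6, 3 and 4 in ATGLKO mice, without overlap. It reaches 10 counts over all mice only through its ATGLKO counts, so no call is given for it. Tlr5 had 3, 4, 5 and 3 counts in WT and 2, 2, 2 and 1 in ATGLKO mice, lower without overlap. Tlr1, Tlr8, Tlr11 and Tlr12 overlapped between genotypes, and Tlr9 had no count in any mouse. Of 15 tested Toll-like receptor signalling proteins, 4 rose: the kinase Irak2 (1.33, edgeR adjusted p = 0.00424), the adaptor Tirap that bridges Tlr2 and Tlr4 to Myd88 (1.30, adjusted p = 0.015), the interferon regulatory factor Irf7 (1.12, adjusted p = 0.0341) and Irak3. The median of the 15 was 0.34, and the other 11, like Myd88, were not called.

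Of 7 tested C-type lectins other than Clec4n, 6 rose, with Clec4a1 at 2.57 ± 1.04 and 26.2 ± 5.03 CPM (SD, n = 4; edgeR log2 fold change 3.36, adjusted p = 1.58e-06), Clec4a3 at 3.43 (adjusted p = 2.31e-06) and Clec4a2 at 3.56 (adjusted p = 2.81e-05). Of the 6 tested proteins that relay lectin signals, 5 rose. Fcer1g, the ITAM chain that pairs with Clec4n, went from 6.12 ± 1.95 to 65.7 ± 18.7 CPM (SD, n = 4; edgeR log2 fold change 3.42, adjusted p = 8.54e-07), Tyrobp rose by 3.98 (adjusted p = 1.58e-06) and the kinase Syk by 2.29 (adjusted p = 0.000194), while Card9 had no count. Clec4n itself had only 1 to 6 counts in ATGLKO mice.

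Around Pycard and Casp1, only 3 of 15 inflammasome genes passed filterByExpr. Il1rn, the interleukin-1 receptor antagonist, was 1.55 ± 1.76 CPM in WT and 22.1 ± 12 CPM in ATGLKO mice (SD, n = 4). It had 0, 9, 2 and 3 WT counts and passes that filter only through its ATGLKO counts, so no call is given for it. Casp8 (edgeR log2 fold change 0.39, adjusted p = 0.372) and Nek7 (−0.09, adjusted p = 0.747) were not called. Among the sparser inflammasome genes, the DNA sensor Aim2 had 1, 0, 0 and 1 counts in WT and 10, 17, 12 and 8 in ATGLKO mice. Casp4 had 0, 0, 4 and 1 counts in WT and 15, 16, 2 and 4 in ATGLKO mice, with overlap. Aim2 and Casp4 reach 10 counts over all mice only through their ATGLKO counts, so no call is given for them. Of 7 tested cytosolic nucleic acid and NOD sensors 1 rose, the adaptor Tmem173 (STING; 1.78, edgeR adjusted p = 0.012), with Ifih1 at 0.59 (adjusted p = 0.174) and Ddx58 at 0.44 (adjusted p = 0.359).

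Of 11 tested NF-kB subunits and inhibitors, 3 rose: the kinase Ikbkb (0.82, edgeR adjusted p = 0.0073), the inhibitor Tnip1 (1.09, adjusted p = 0.01) and the subunit Rela (0.57, adjusted p = 0.0283). Of the inflammatory target genes only Ccl5 passed filterByExpr, and it was not called (1.34, edgeR adjusted p = 0.0648). The sparser target genes pass a filter of at least 10 counts over all mice only through their ATGLKO counts, so no count of calls is given for them. Cxcl10 had 0, 3, 1 and 1 counts in WT and 30, 12, 8 and 5 in ATGLKO mice, without overlap. Ccl2 had 0, 0, 0 and 1 counts in WT and 8, 11, 9 and 1 in ATGLKO mice, and Cxcl1 had 0, 1, 0 and 0 and 14, 4, 7 and 0, so both overlapped between genotypes. Tnf had 0 counts in all WT mice and 2, 3, 1 and 3 in ATGLKO mice, and Saa3 had 0 and 3, 3, 1 and 2, both without overlap. Il1b, of the inflammasome list, had 0 counts in all WT mice and 3, 0, 4 and 1 in ATGLKO mice, with overlap. In the other direction, Nos2 had 2, 0, 1 and 0 counts in WT and 1, 0, 0 and 0 in ATGLKO mice, with overlap. These values lie near the floor, and Il6, Il1a and Acod1 had no count in any mouse.

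**Figure D4:**
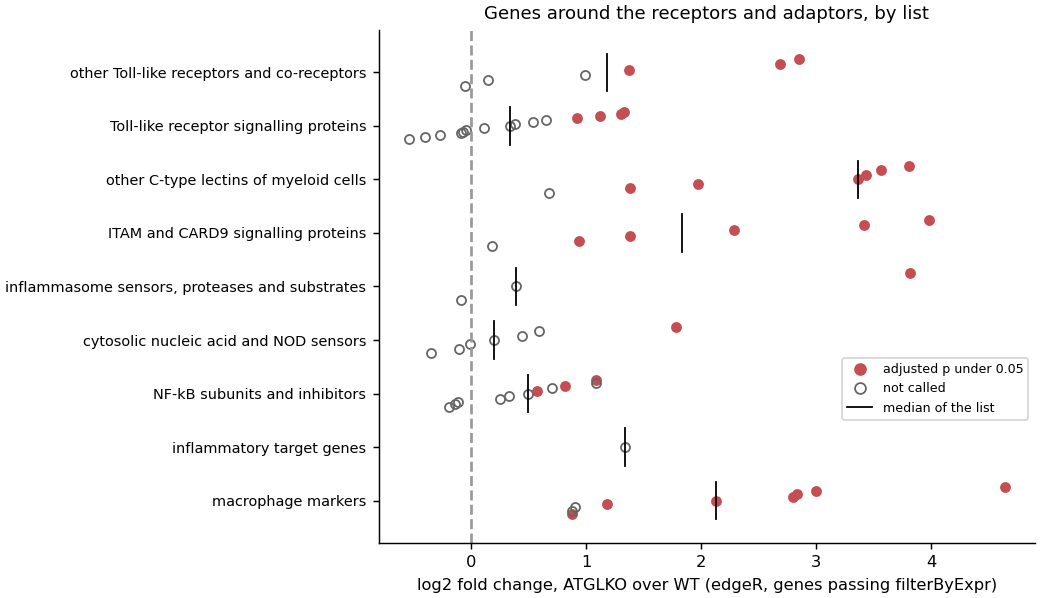
Log2 fold change (ATGLKO over WT, edgeR) of each gene that passed filterByExpr in the 8 lists and of the macrophage markers, with filled red points for an adjusted p under 0.05, open points for the rest and a line at the median of each list. No filled point lies below 0, and the list medians run from 0.20 for cytosolic sensors to 3.36 for C-type lectins.

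The mean profile of the 9 members over the 8 mice, centred for each gene on the log2 CPM scale, was compared with those of 6428 genes of at least 10 CPM. The 5 nearest were Ifitm3, Elovl1, Ecm2, Pltp and Actb, whose mean absolute differences from the profile were 0.09 to 0.12. Ifitm3, an interferon-induced membrane protein, was 61.3 ± 3.1 CPM in WT and 152 ± 19.2 CPM in ATGLKO mice (SD, n = 4). Likeness in 8 mice largely follows the step between genotypes, and the members' profile is damped by their low counts.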

How the data were processed

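BAT of 4 WT and 4 ATGLKO mice was profiled by single-end 3′ digital mRNA-seq, 1 library per mouse. According to the study's methods, the authors used bbduk for trimming, STAR for alignment to mm10 and HTseq-counts for counting, whereas the submitters' processing notes name Trimmomatic, HISAT2 and DESeq2. The deposited counts are whole numbers per Ensembl gene without normalization. The authors also deposited log2 values of scaled counts, used here for 1 alternative. A 3′ protocol gives tags per transcript, so levels were compared between mice and not between genes. The labels give an age of 10 weeks, the study's legends another.

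Symbols and positions came from GENCODE vM21 (GRCm38), and 30934 of 31053 identifiers had a symbol. Counts were filtered with filterByExpr, scaled by TMM and tested for genotype with the quasi-likelihood test of edgeR 4.0.16 in R 4.3.3, with Benjamini-Hochberg adjustment over all genes tested and a threshold of 0.05. As 8 of the 9 measured members did not pass that filter, they were read from a more permissive filter of at least 1 count in any mouse, and from a filter of at least 10 counts over all mice added after the data were seen. Standard errors are the size of the log2 fold change over the square root of F. Alternatives used DESeq2 1.42.0 and limma 3.58.1. Ratios of pooled counts have exact (Clopper-Pearson) 95% intervals, which cover counting error only, and reads without molecular identifiers are not independent molecules. Log2 CPM used a prior count of 2. Replicate libraries of a genotype differed beyond sampling noise in all pairs (chi-square over degrees of freedom 4.69 to 23.2). On simulated counts, the filter of at least 1 count recovered 51.0% of changes of 1 and 85.0% of changes of 2 on the log2 scale. Changes were planted only in genes with a mean of about 3 counts or more per library. These rates therefore do not hold for sparser members such as Tlr2 and Clec4n.

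The members and lists were chosen with earlier results of these data known. The genes named were the members, Pnpla2, the 3 genes of smallest p in each list (from the permissive filter where few passed), Adgre1, Csf1r and Cd68, and the 5 nearest profiles. Likeness was to use tested members, but as 1 passed the filter all 9 with counts were used. Irak3, genes at 0, the other sparse Toll-like receptors, Tnf, Saa3, Nos2 and Il1b were named after their values were seen. So were Ucp1 and Cidea, to check the tissue.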

Additional observations from a re-analysis of the deposited data

Results flagged for a closer look

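For Tlr7, WT replicate 4 stood apart from the other WT mice in CPM (gap of 1 relative to the range of the group), since it held the 1 Tlr7 count of the genotype and the other 3 mice had 0. For Tlr13, WT replicate 2 stood apart in the same way (gap of 1), with the 1 Tlr13 count of the genotype. Both rest on a single count. Of 22 groups of 4 mice checked, 1.1 would be set apart by chance, at about 1 in 20.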

How the results depend on the processing

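Over the 9 measured members, 154 refits of the log2 fold change under other scalings, tests, filters and left-out mice kept direction and call in 140, with 8 reversals, all of Myd88, 4 gained calls and 2 lost calls. Myd88 reversed to −0.02 with DESeq2's size factors, −0.0013 without mitochondrially encoded genes, −0.03 with either low-count filter, −0.03 with DESeq2's Wald test, and −0.05, −0.18 and −0.08 without WT replicate 1, WT replicate 4 and ATGLKO replicate 4, in a range of −0.18 to 0.13 over left-out mice, none of them called. The number of members called was 0 with filterByExpr and 4 under the filter of 1 count in any mouse, that of 10 counts over all mice and DESeq2's Wald test, since those filters keep the sparse members. With at least 1 count it was 4 to 5 over left-out mice, 5 with limma trend, 6 with limma voom and 2 without the 4 libraries highest in skeletal muscle markers, an alternative added after the data were seen that leaves 2 mice a genotype. Of these 2, Tlr7 passes the filter there only through its ATGLKO counts. Limma trend, on a log2 scale with 1 added to each scaled count, gave the lowest changes for Tlr7 (2.76), Tlr13 (2.86), Pycard (2.48) and Casp1 (2.20), all called. Over all genes, calls numbered 1872 (1191 higher, 681 lower) and moved to 1195 (746 higher, 449 lower) with at least 10 counts in every mouse. Leaving out single mice gave 1345 to 2155 calls, 945 to 1304 higher and 400 to 851 lower, with the 400 without ATGLKO replicate 2. Scaling by total counts gave 404 lower calls, raised the share of calls that were higher from 63.6% to 78.5% and moved the median of all genes from −0.009 to 0.130, and the 4 called members were called under it too. Genes of the pathway lists called higher were 23, and 41, 39 and 9 under the filters of 1 count in any mouse, 10 over all mice and 10 in every mouse, and 19 to 25 over left-out mice. Macrophage markers called were 5 to 9 of 10 over left-out mice. Per Csf1r count in place of the summed markers, the Myd88 ratio moved from 0.228 to 0.136. Correlations of deviations between mice of the same replicate number were −0.0873, −0.196, 0.304 and 0.241. They were not tested, so a pairing of the mice is neither shown nor excluded. With the replicate number as a block the calls over all genes were 1719 and the members called 0 with filterByExpr and 4 with at least 1 count. The cause of these changes was not tested. At 2017697 to 3115956 counts per mouse, members with 0 to 3 WT counts in all allow a ratio no more precise than their counting intervals.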
